A study of Mus musculus with 4 samples.

Results

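The genes of endosomal sorting were followed in CT26 cells, a mouse colon carcinoma line, with and without iRhom1. Members were chosen by symbol from the table of gene expression: the vacuolar protein sorting (VPS) genes, the charged multivesicular body (CHMP) genes, the sorting nexins (SNX) and the subunits of the adaptor complexes AP-1 to AP-5. Of the 21677 gene symbols in the table, 98 matched. Bulk RNA had been sequenced in 4 libraries, S17 and S19 from Control cells and S18 and S20 from iRhom1 KO cells ("iRhom KO" in the labels). Levels are FPKM, fragments of a gene corrected for the length of its transcript and for the fragments mapped in the library. Both groups were grown in the same medium with serum, and no treatment followed the knockout. A lentiviral CRISPR vector had been used to delete iRhom1, and the cells were carried on from a single clone, so the KO group is 1 clone. A vector line with Cas9 but no guide was also selected as a single clone, and whether it gave the Control libraries is uncertain, since the study calls the cells compared wild type where it shows the sequencing and speaks of a control sample in its methods. The study describes the sequencing data as representative of 2 independent experiments, but whether the libraries of a group stand for these is not stated in the sources used here, so the p-values measure the spread between these libraries, which may be technical.

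Relative to S17, the depth of the other libraries lay between 0.93 and 0.967, as judged from the FPKM that 1 fragment is worth in 600 genes of low level. Rhbdf1, the gene of iRhom1, could not serve as a check of the knockout in these RNA data, because its FPKM equalled those of Apobec2 in 3 of the 4 libraries. The study itself chose its KO clones by the absence of the protein in Western blots. Epcam and Cdh1, defining markers of epithelial cells, had no row in the table. Of the 8 epithelial markers 5 had a row, and their summed level was 18.8 and 19.9 FPKM in Control and 38.1 and 36.9 in iRhom1 KO. Of the 3 tested, 2 were higher and 0 lower, and Krt8 went from 0.0278 and 0 FPKM in Control to 6.8 and 7.03 in iRhom1 KO. The fibroblast and mesenchymal markers, 6 of 8 with a row, summed to 65.4 and 61.2 FPKM in Control and 111 and 125 in iRhom1 KO. Of the 4 tested, 3 were higher and 0 lower, and these 3 were the collagen genes Col1a1, Col1a2 and Col3a1. Col3a1 went from 22.9 and 22.2 FPKM in Control to 58.8 and 67.5 in iRhom1 KO. Dcn was not called, and Pdgfra, not tested, went the other way, from 1.05 and 0.916 FPKM to 0.761 and 0.723. For leukocytes 2 of 6 markers had a row, and Ptprc was at 0.0063 FPKM or less. The sum of 3.36 and 3.37 FPKM in Control against 0.678 and 0.833 in iRhom1 KO was almost all Cd68. Cd68 was at 3.36 FPKM in each Control library and at 0.677 and 0.83 in iRhom1 KO. This sum therefore follows a single gene and is no count of leukocytes. The endothelial markers, 2 of 4 with a row, stayed at a sum of 0.0227 FPKM or less. These sums moved with the groups, and their part in the results was not tested. In bulk RNA, fewer cells of a kind and less RNA per cell cannot be told apart.

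Endosomes receive proteins from the cell surface and from the Golgi apparatus and decide their fate. The ESCRT complexes gather ubiquitinated receptors and bud them into the lumen of the endosome for destruction in the lysosome, while the HOPS and CORVET tethers bring endosomes and lysosomes together for fusion. Retromer, retriever and many sorting nexins return receptors to the Golgi apparatus or the surface, GARP and EARP tether the vesicles that carry them, and the adaptor complexes choose the cargo that enters coated vesicles.

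Most members that changed were lower in iRhom1 KO cells. In a comparison with limma on log2(FPKM + 0.5), 89 members reached a mean of 1 FPKM in Control, in iRhom1 KO or in both and were tested, and 3 were higher and 26 lower at an adjusted p under 0.05. The called share of 32.6% equalled the 32.6% over the 10271 genes tested, of which 10.7% were higher and 21.9% lower, against 3.37% and 29.2% of the members. The median log2 fold change, iRhom1 KO minus Control throughout, was -0.18 for the members and -0.10 for all genes, and 65 of the 89 members lay below 0, as did 61.1% of all genes. Both KO libraries lay on the same side of both Control libraries for 66 members (74.2%), among them all 29 that were called, beside 72.0% of all genes tested. Only Vps33a and Ap5z1 stood at 50% of the Control level or less. Of the tested members, Vps37d, Ap5m1 and Ap5z1 reached 1 FPKM in 1 group only, and without them 3 members were higher and 25 lower.

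The split depended on the scaling between libraries and on single libraries. With trimmed mean scaling 7 members were higher and 21 lower (1646 and 1696 of all genes), and with quantile normalization 8 and 18 (1605 and 1553 of all genes). Subtracting the median of each chromosome gave 6 and 14 (1645 and 1114 of all genes). The median of all genes moved from -0.10 to -0.01, 0.00 and 0.03 in these settings, so each log2 fold change here is to be read against a general shift of -0.10. Without S17 1 member was higher and 15 lower, without S19 0 and 17, without S18 1 and 21, and without S20 4 and 17. No called member changed sign in any alternative. Leaving out a library, another pseudocount or another filter could not have changed it, since the groups overlapped for no called member. The call was kept in every alternative in which the gene was tested by 9 members, each of them lower. These were Vps11, Vps33a, Vps41, Vps26a, Vps29, Vps50, Ap1s1, Ap3b1 and Ap5z1. Of these, Ap5z1 reached 1 FPKM in Control only and was not tested with the filter at 5 FPKM. Among the 60 members that were tested and not called, 24 changed sign in at least 1 alternative.

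**Figure D1:**
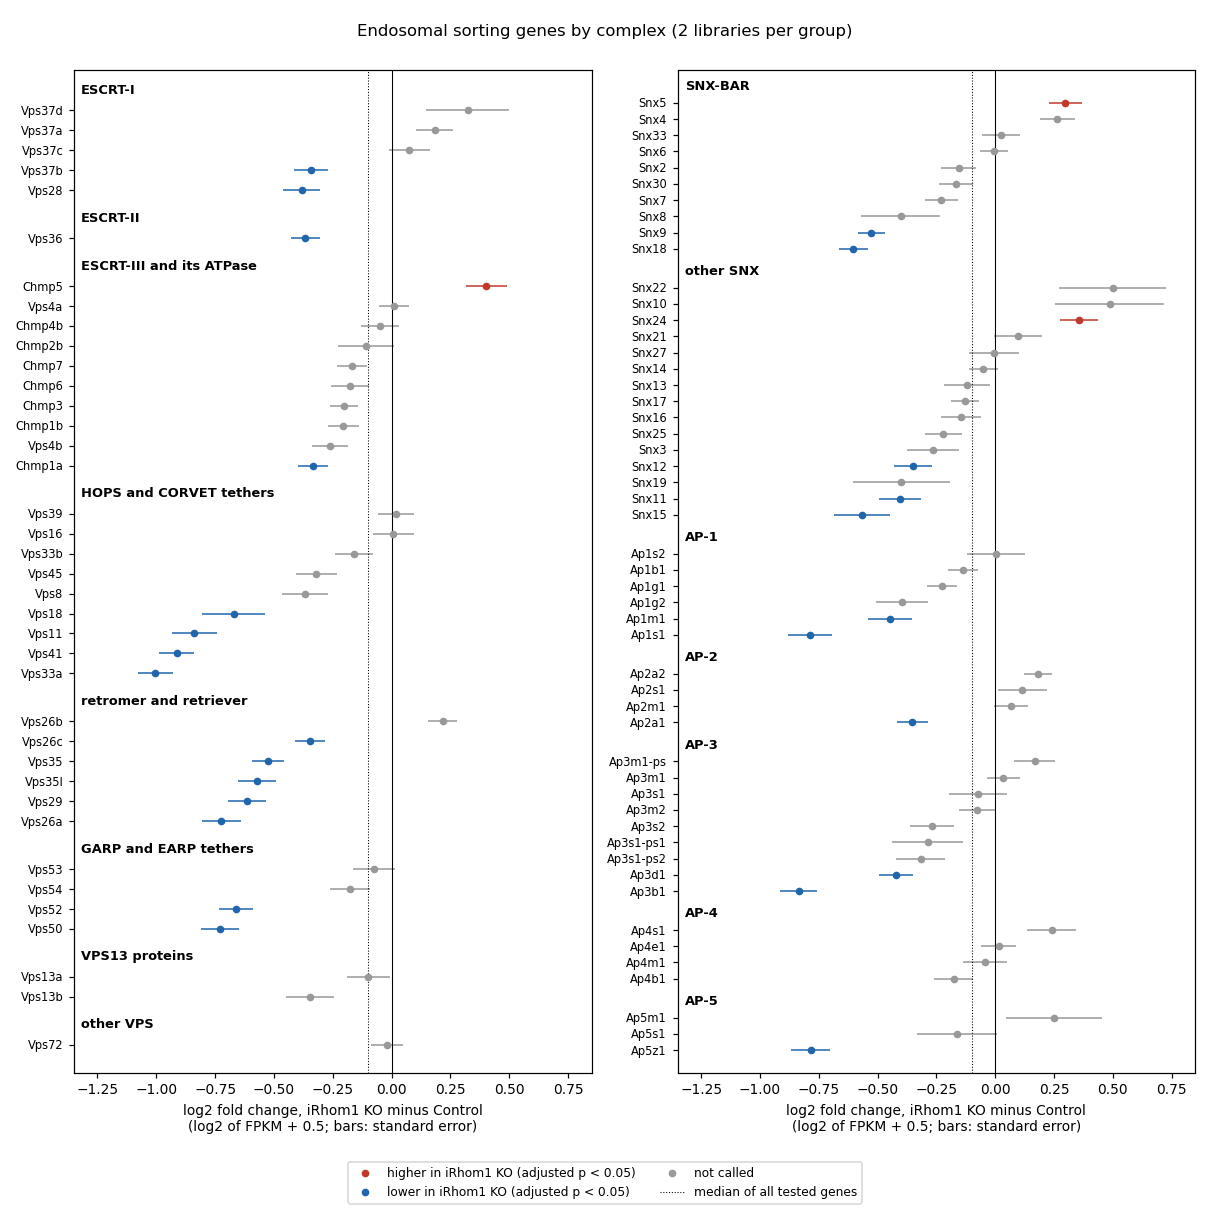
Log2 fold change (iRhom1 KO minus Control, log2 of FPKM + 0.5) of the 89 tested members, grouped by complex, with limma's standard error as bars; red and blue points are higher and lower at an adjusted p under 0.05, grey points are not called, and the dotted line is the median of all tested genes. The retromer and retriever subunits other than Vps26b, and 4 of the 9 HOPS and CORVET genes, sit well to the left of that line, while most points of AP-2 and AP-4 sit near or to the right of it.

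The tethers HOPS and CORVET held the member with the lowest log2 fold change. Of their 9 genes, counting the related proteins Vps33b and Vps45, 4 were lower (44.4%) and 0 higher, beside 21.9% and 10.7% of all genes. The median log2 fold change was -0.37, beside -0.10 for all genes. Vps33a, the Sec1/Munc18 protein that lets the tether act on SNAREs, was at 19.1 and 19 FPKM in Control and at 8.79 and 9.74 in iRhom1 KO. Its log2 fold change was -1.0 (standard error, SE, 0.076, adjusted p = 0.00547), the KO mean being 48.6% of the Control mean, with no overlap between the groups. Vps41, a subunit that HOPS has and CORVET lacks, was at 14.8 and 14.2 FPKM in Control and at 7.77 and 7.16 in iRhom1 KO, so that each KO library held about the same reduced level. It fell by 0.91 on the log2 scale (SE 0.074, adjusted p = 0.00563). Vps11 and Vps18 belong with Vps33a and Vps16 to the core that both tethers share. Vps11 fell from 6.73 and 5.93 FPKM to 3.47 and 3.16, a log2 fold change of -0.84 (SE 0.095, adjusted p = 0.00943). Vps18 fell from 3.27 and 3.26 FPKM to 1.61 and 2.15, a log2 fold change of -0.67 (SE 0.133, adjusted p = 0.0266), with a wider spread between the KO libraries than between the Control libraries. The call of Vps18 was lost with no filter on low values and with chromosome medians subtracted.

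The remaining tether genes overlapped between the groups or missed the threshold. Vps16, the fourth subunit of the shared core, was at 10.9 and 11.3 FPKM in Control and at 11.9 and 10.4 in iRhom1 KO, and Vps39, the other subunit specific to HOPS, was at 3.43 and 3.38 against 3.62 and 3.31. In both the KO libraries spanned the Control values. Vps8, a subunit of CORVET, was at 2.19 and 2.36 FPKM in Control and 1.79 and 1.52 in iRhom1 KO, with a log2 fold change of -0.37 and an adjusted p of 0.0529. Vps45, a Sec1/Munc18 protein of early endosomes, was at 7.19 and 6.89 against 5.89 and 5.21 FPKM, with a log2 fold change of -0.32 and an adjusted p of 0.0522. The groups did not overlap for Vps8 and Vps45, and each passed the threshold in some settings, Vps8 with robust limma and with chromosome medians subtracted, Vps45 with a stricter filter. Vps33b, which works in a separate complex with Vipas39, was at 2.93 and 3.15 against 2.59 and 2.74 FPKM (log2 fold change -0.16, adjusted p = 0.187).

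The promoters of 3 HOPS subunits are shown because these subunits act in 1 complex and did not move alike: Vps33a (lower, chr5:123572966-123573265, minus strand), Vps16 (not called, chr2:130424070-130424369, plus strand) and Vps41 (lower, chr13:18717042-18717341, plus strand). Each is the RefSeq window on GRCm38.p6 from 250 bases before to 50 bases after the annotated start, 5′ to 3′. Capitals mark CACGTG, a palindrome that is the core of the E-box bound by basic helix-loop-helix factors, or the longer TCACGTGA that contains it.
Vps33a: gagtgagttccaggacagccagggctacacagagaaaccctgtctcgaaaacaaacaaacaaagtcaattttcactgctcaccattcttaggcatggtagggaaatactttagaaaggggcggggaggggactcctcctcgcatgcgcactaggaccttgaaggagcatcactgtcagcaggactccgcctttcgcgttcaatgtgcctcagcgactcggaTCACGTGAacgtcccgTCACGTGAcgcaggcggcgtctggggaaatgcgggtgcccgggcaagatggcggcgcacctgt
Vps16: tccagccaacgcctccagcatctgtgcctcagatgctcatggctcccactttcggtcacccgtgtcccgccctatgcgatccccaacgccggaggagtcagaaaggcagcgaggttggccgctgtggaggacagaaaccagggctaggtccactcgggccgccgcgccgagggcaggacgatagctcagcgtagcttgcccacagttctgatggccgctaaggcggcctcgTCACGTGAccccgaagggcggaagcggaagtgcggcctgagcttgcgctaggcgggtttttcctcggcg
Vps41: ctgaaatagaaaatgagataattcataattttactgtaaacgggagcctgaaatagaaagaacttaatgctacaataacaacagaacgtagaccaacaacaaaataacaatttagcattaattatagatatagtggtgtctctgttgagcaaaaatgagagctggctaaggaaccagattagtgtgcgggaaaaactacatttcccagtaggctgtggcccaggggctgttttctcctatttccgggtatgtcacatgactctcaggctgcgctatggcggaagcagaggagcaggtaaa
The window of Vps33a held CACGTG at 2 places, both within TCACGTGA, and that of Vps16 held 1, also within TCACGTGA. The window of Vps41 held none, so the letters were present with and without a lower level and absent from 1 of the lower genes.

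Retromer and retriever had the largest share of lower members among the complexes with at least 2 tested genes. Of 6 tested genes 5 were lower (83.3%) and 0 higher, beside 21.9% and 10.7% of all genes. The median log2 fold change was -0.55. Vps26a, the arrestin-like subunit that binds sorting nexins and cargo, was at 54.0 and 54.9 FPKM in Control and at 34.9 and 30.8 in iRhom1 KO. The KO libraries lay well below both Control libraries, at a log2 fold change of -0.72 (SE 0.0828, adjusted p = 0.00951). Vps35, the scaffold on which retromer assembles, fell from 53.1 and 49.4 FPKM to 36.1 and 34.8, a log2 fold change of -0.53 (SE 0.0685, adjusted p = 0.0112). Vps29, a subunit of both complexes, fell from 15 in each Control library to 10.2 and 9.05, a log2 fold change of -0.62 (SE 0.0816, adjusted p = 0.0116). Of the bases in the exons of Vps29, 5.53% overlap Fam216a on the opposite strand, and whether fragments were counted by strand is not stated, so the split between these genes is uncertain.

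Retriever is the sister complex that recycles integrins and other receptors chosen by Snx17. Its scaffold Vps35l fell from 4.66 and 5.05 FPKM to 3.19 and 3.01, a log2 fold change of -0.57 (SE 0.0796, adjusted p = 0.0126). Vps26c fell from 19.5 and 19.9 to 15.8 and 14.9 FPKM, a log2 fold change of -0.35 (SE 0.0642, adjusted p = 0.0229). Leaving out S20 ended the calls of Vps35 (adjusted p = 0.0513) and Vps35l (adjusted p = 0.0543), and leaving out S17, S19 or S20 ended that of Vps26c (adjusted p 0.0594 to 0.106), which quantile normalization also ended.

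Vps26b, the paralog that can take the place of Vps26a in retromer, stood on the other side of 0. It was at 10.3 and 9.92 FPKM in Control and at 11.8 and 11.9 in iRhom1 KO, with a log2 fold change of 0.22 and an adjusted p of 0.0608. Both KO libraries were above both Control libraries, and the gene passed the threshold as higher with trimmed mean scaling (log2 fold change 0.31), quantile normalization (0.33) and chromosome medians subtracted (0.36). The promoter windows of both paralogs, on GRCm38.p6 and with the same capitals as above, are shown because the paralogs moved apart: Vps26a at chr10:62486756-62487055 on the minus strand, where RefSeq lists a second overlapping window, and Vps26b at chr9:27030045-27030344 on the minus strand.
Vps26a: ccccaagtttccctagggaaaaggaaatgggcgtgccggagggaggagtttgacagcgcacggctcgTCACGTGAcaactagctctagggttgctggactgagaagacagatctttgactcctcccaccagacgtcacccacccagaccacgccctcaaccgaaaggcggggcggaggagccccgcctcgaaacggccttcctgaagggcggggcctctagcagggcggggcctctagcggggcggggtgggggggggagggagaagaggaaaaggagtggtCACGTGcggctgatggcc
Vps26b: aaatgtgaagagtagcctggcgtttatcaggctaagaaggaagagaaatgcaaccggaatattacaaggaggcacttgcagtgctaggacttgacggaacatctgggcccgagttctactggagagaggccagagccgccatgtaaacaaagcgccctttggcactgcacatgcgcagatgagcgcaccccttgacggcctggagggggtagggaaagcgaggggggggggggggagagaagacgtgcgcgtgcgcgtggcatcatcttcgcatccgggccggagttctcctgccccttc
CACGTG stood at 2 places in the window of Vps26a, 1 of them within TCACGTGA, and at none in that of Vps26b. Of the 32851 promoter windows in RefSeq's set, 7.15% held CACGTG and 0.974% held TCACGTGA, and among windows of tested genes the shares were 10.5% and 2.03%. Of the 98 members 69 had a window, 80 windows in all, of which 11 (13.8%) held CACGTG and 4 (5.0%) held TCACGTGA. CACGTG was found in 5 of 18 members that were lower, 1 of 2 that were higher and 4 of 44 that were tested and not called. A match of letters is a description of the sequence and shows no bound factor.

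GARP and EARP share all subunits but 1 and tether vesicles that return from endosomes to the Golgi apparatus and the surface. Of their 4 tested genes 2 were lower and 0 higher, beside 21.9% and 10.7% of all genes. Their median log2 fold change was -0.42, beside -0.10 for all genes. Whether so small a set differs from other genes was not tested. Vps50, the subunit that makes EARP, fell from 10.2 and 9.74 FPKM to 6.12 and 5.49, a log2 fold change of -0.73 (SE 0.081, adjusted p = 0.00905). The shared subunit Vps52 fell from 8.13 and 8.66 FPKM to 5.00 and 5.24, a log2 fold change of -0.66 (SE 0.0723, adjusted p = 0.00882). Vps52 lies on chromosome 17, whose tested genes had a median log2 fold change of -0.37. The call of Vps52 was lost with chromosome medians subtracted, where its log2 fold change was -0.20. The shared Vps53 was at 9.11 and 9.41 against 9.40 and 8.19 FPKM, with overlap between the groups. Vps54, the counterpart of Vps50 in GARP, was at 10.2 and 10.3 FPKM in Control and 9.65 and 8.47 in iRhom1 KO (log2 fold change -0.18, adjusted p = 0.18).

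None of the VPS13 proteins, which carry lipids between membranes, was called. Vps13b was at 2.90 and 2.43 FPKM in Control and 1.95 and 2.01 in iRhom1 KO, a log2 fold change of -0.35 with an adjusted p of 0.0643. Vps13a overlapped between the groups (7.38 and 6.42 against 6.50 and 6.29 FPKM), and Vps13d, at 0.779 to 0.907 FPKM, was too low to be tested. Vps72 matched by its symbol but is a nuclear subunit of a chromatin remodelling complex, and it overlapped as well (6.80 and 6.89 against 6.54 and 6.97 FPKM).

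The ESCRT genes moved in both directions. Of 16 tested, 4 were lower (25.0%) and 1 higher (6.25%), beside 21.9% and 10.7% of all genes. Their median log2 fold change was -0.17, beside -0.10 for all genes. In ESCRT-I, which takes over ubiquitinated cargo, Vps28 fell from 8.59 and 8.38 FPKM to 6.08 and 6.73, a log2 fold change of -0.38 (SE 0.0782, adjusted p = 0.0285). Vps37b fell from 11.1 and 10.3 FPKM to 8.5 and 8.13, a log2 fold change of -0.34 (SE 0.0723, adjusted p = 0.0301), though 32.9% of its exon bases overlap Hip1r on the opposite strand. The other forms of Vps37, which replace each other in ESCRT-I, did not pass the test. Vps37a was at 9.61 and 9.09 FPKM in Control and 11.2 and 10.1 in iRhom1 KO (log2 fold change 0.18, adjusted p = 0.151), Vps37d at 0.752 and 1.16 against 1.45 and 1.16, and Vps37c overlapped (3.31 and 3.76 against 3.70 and 3.79). Vps37a passed as higher with trimmed mean scaling and with quantile normalization. Vps36, the tested subunit of ESCRT-II that binds ubiquitin, fell from 24.1 and 24.0 FPKM to 19 and 18.1, a log2 fold change of -0.37 (SE 0.0616, adjusted p = 0.0187).

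ESCRT-III forms the filament that pinches the bud off, and the ATPase Vps4 takes it apart. Chmp5, which binds the activator of Vps4, was at 55.0 and 54.9 FPKM in Control and rose to 78.3 and 67.8 in iRhom1 KO, with more spread between the KO libraries than between the Control libraries. Its log2 fold change was 0.40 (SE 0.0889, adjusted p = 0.0338), and the 60 tested genes within 5 Mb of it on chromosome 4 had a median of 0.28. Chmp1a, a regulator of Vps4 recruitment, fell from 17.7 and 17.9 FPKM to 13.6 and 14.5, a log2 fold change of -0.33 (SE 0.0654, adjusted p = 0.026). The main filament subunit Chmp4b was the most abundant of the group, and it overlapped at 78.9 and 82.5 against 73.7 and 82.5 FPKM. Vps4a overlapped too (33.7 and 33.2 against 34.7 and 32.7 FPKM), while Vps4b was at 9.98 and 9.75 in Control and 8.53 and 7.77 in iRhom1 KO with a log2 fold change of -0.26 and an adjusted p of 0.0612. Chmp3 (log2 fold change -0.20, adjusted p = 0.0689) and Chmp1b (-0.21, adjusted p = 0.0763) also missed the threshold without overlap. Chmp2b, Chmp6 and Chmp7 were not called either (adjusted p 0.111 to 0.515), and Chmp4c, at 0.0492 and 0.0445 against 0.229 and 0.151 FPKM, was too low to be tested.

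No ESCRT call held in every alternative. Without S17 or S19 every one of them was lost, Vps28 and Chmp1a also without S18, Vps36 also without S20, and Vps37b also without either. The adjusted p in these fits was 0.0587 to 0.11 for Vps28, 0.0633 to 0.156 for Vps37b, 0.0523 to 0.0836 for Vps36, 0.0559 to 0.116 for Chmp1a and 0.0779 to 0.079 for Chmp5. The calls of Vps28, Vps37b and Chmp5 were also lost with no filter, those of Vps28 and Chmp1a with trimmed mean scaling, and those of Vps28, Vps37b and Chmp1a with quantile normalization. With chromosome medians subtracted the log2 fold change was -0.04 for Vps28, -0.14 for Vps37b, -0.18 for Chmp1a and -0.22 for Vps36, and none of these 4 was called.

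**Figure D2:**
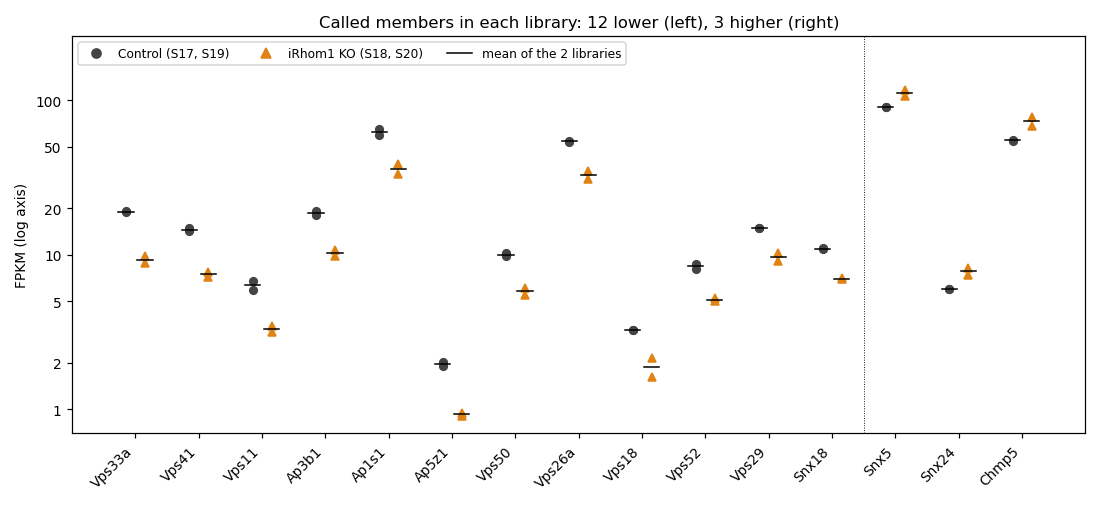
FPKM on a log axis in each of the 4 libraries for the 12 lower members with the lowest log2 fold change (left of the dotted line) and the 3 higher members (right), with the mean of each pair of libraries as a bar. For each gene both triangles of iRhom1 KO lie on 1 side of both circles of Control, and the gap is wide for Vps33a (19.1 and 19 against 8.79 and 9.74 FPKM) and narrow for Snx5 (90.8 and 89.9 against 116 and 106 FPKM).

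Sorting nexins bind endosomal phosphoinositides through a PX domain, and those with a BAR domain also bend membranes into tubules. Of 25 tested, 5 were lower and 2 higher, and both shares were smaller than the 21.9% and 10.7% of all genes. Their median log2 fold change was -0.15, beside -0.10 for all genes. Among the 10 tested SNX-BAR proteins 2 were lower and 1 higher, again smaller shares than among all genes. Snx5, a cargo-binding partner of Snx1 and Snx2 in retrieval from endosomes, was at 90.8 and 89.9 FPKM in Control and rose to 116 and 106 in iRhom1 KO, a log2 fold change of 0.30 (SE 0.0702, adjusted p = 0.0385). Its paralog Snx6 overlapped at 32.2 and 31.6 against 32.5 and 31.1 FPKM, and Snx2 was at 46.5 and 45 in Control and 43.1 and 39.1 in iRhom1 KO (log2 fold change -0.16, adjusted p = 0.177). Snx4, which recycles receptors and serves autophagy, was at 20.4 and 21.2 FPKM in Control and 26.3 and 24.0 in iRhom1 KO (log2 fold change 0.26, adjusted p = 0.0576). The groups did not overlap, and Snx4 passed as higher under each of the 3 other scalings. Its partners Snx7 (log2 fold change -0.23, adjusted p = 0.0694) and Snx30 (-0.17, adjusted p = 0.147) had values below 0 and were not called.

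Snx9 and Snx18, SNX-BAR proteins that act with dynamin in endocytosis, were lower. Snx9 fell from 65 and 66.9 FPKM to 45.9 and 45.3, a log2 fold change of -0.53 (SE 0.0576, adjusted p = 0.00882). Snx18 fell from 10.9 and 11 to 7.03 and 7.0 FPKM, a log2 fold change of -0.60 (SE 0.0611, adjusted p = 0.0079). Both kept the call without any 1 library, and both lost it with chromosome medians subtracted, where their log2 fold changes were -0.07 and -0.18. Snx33, the third protein of this kind, overlapped at 3.51 and 3.84 against 3.65 and 3.84 FPKM. Snx8 spread widely, at 14.2 and 12 against 8.45 and 11.3 FPKM (log2 fold change -0.40, adjusted p = 0.135).

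Among the 15 other sorting nexins tested, 3 were lower and 1 higher, beside 21.9% and 10.7% of all genes. Their median log2 fold change was -0.13, beside -0.10 for all genes. Snx15 fell from 4.95 and 4.46 FPKM to 3.35 and 2.72 (log2 fold change -0.56, SE 0.119, adjusted p = 0.0304), Snx11 from 3.20 and 2.94 to 2.08 and 2.31 (-0.41, SE 0.0892, adjusted p = 0.0336) and Snx12 from 13.8 and 15.3 to 11.6 and 10.9 (-0.35, SE 0.0818, adjusted p = 0.0381). Snx24 rose from 6.04 and 5.96 FPKM to 8.26 and 7.39, a log2 fold change of 0.36 (SE 0.0808, adjusted p = 0.0361). These calls were among the weaker ones. Snx11 and Snx12 lost theirs without each library in turn (adjusted p 0.0669 to 0.136 and 0.0627 to 0.169), Snx15 without S17 or S20 (0.0751 to 0.079), and Snx24 (0.0667 to 0.127) and Snx5 (0.0668 to 0.132) without S17, S19 or S18. With no filter on low values all 5 were lost, and Snx11 and Snx12 were also lost under each of the 3 other scalings.

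The sorting nexins that choose cargo for the recycling complexes were not called. Snx27, which brings receptors with a PDZ-binding tail to retromer, overlapped at 7.82 and 7.05 against 7.98 and 6.84 FPKM. Snx17, the cargo adaptor of retriever, was at 14.4 and 14.3 FPKM in Control and 13.2 and 13 in iRhom1 KO, and the groups did not overlap. Snx3, which works with retromer without a BAR domain, was among the most abundant sorting nexins at 89.5 and 91.6 FPKM in Control and 83.0 and 68.2 in iRhom1 KO (log2 fold change -0.27, adjusted p = 0.135), and it passed as lower only without S18. The log2 fold changes of Snx22 (0.50, adjusted p = 0.161) and Snx10 (0.49, adjusted p = 0.175) were the highest of all members and had the largest standard errors, 0.228 and 0.232. Snx10 was at 2.64 and 2.51 FPKM in Control and at 4.90 in S18 but 2.94 in S20, while Snx22, at 9.73 and 6.22 against 10.3 and 12.2, shares 28.5% of its exon bases with the abundant Ppib on the opposite strand. Of the remaining ones, Snx13, Snx14, Snx16, Snx19, Snx21 and Snx25 were not called (adjusted p 0.0937 to 0.554). Snx20 was not tested, since it stood at 0.00291 and 0.00292 FPKM in Control and 0.392 and 0.350 in iRhom1 KO.

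The adaptor complexes had 6 lower (23.1%) and 0 higher of 26 tested genes, beside 21.9% and 10.7% of all genes. Their median log2 fold change was -0.15, beside -0.10 for all genes. AP-1 carries cargo with clathrin between the Golgi apparatus and endosomes, and 2 of its 6 tested genes were lower. Ap1s1, a small sigma subunit, fell from 59.7 and 64.9 FPKM to 38.4 and 33.5, a log2 fold change of -0.79 (SE 0.0947, adjusted p = 0.00993). Ap1m1, the mu subunit that reads tyrosine-based sorting signals, fell from 7.22 and 7.62 FPKM to 5.72 and 4.93, a log2 fold change of -0.45 (SE 0.0947, adjusted p = 0.0307). The call of Ap1m1 was lost without S17, S19 or S20 (adjusted p 0.0627 to 0.0963), with no filter and with chromosome medians subtracted. Ap1s2, another sigma subunit, overlapped at 11.6 and 10.4 against 12.2 and 9.96 FPKM. The gamma subunits Ap1g1 (9.73 and 9.42 against 8.04 and 8.19 FPKM, adjusted p = 0.0577) and Ap1g2 (1.44 and 1.65 against 1.15 and 0.955, adjusted p = 0.0587) missed the threshold without overlap, and the beta subunit Ap1b1 was at 6.18 and 6.20 against 5.55 and 5.62 (adjusted p = 0.168).

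AP-2 collects receptors at the plasma membrane for endocytosis, and its alpha subunits differed in sign. Ap2a1 fell from 16.6 and 16.7 FPKM to 12.5 and 13.4, a log2 fold change of -0.35 (SE 0.067, adjusted p = 0.0245), a call lost without S17, S19 or S18 (adjusted p 0.053 to 0.1) and under each of the 3 other scalings. The more abundant Ap2a2 was at 34.0 and 33.4 FPKM in Control and 37.6 and 38.9 in iRhom1 KO (log2 fold change 0.18, adjusted p = 0.0824), and it passed as higher under each of the 3 other scalings. Ap2m1 (28.1 and 30.9 against 31.2 and 30.6 FPKM) and Ap2s1 (64.2 and 54.3 against 61.7 and 66.5) overlapped.

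AP-3 sends membrane proteins from endosomes to lysosomes and related organelles, and its 2 large subunits with values of at least 1 FPKM were both lower. Ap3b1 was at 19.3 and 18.1 FPKM in Control and at 10.7 and 9.80 in iRhom1 KO, a log2 fold change of -0.84 (SE 0.0781, adjusted p = 0.0069). Ap3d1 fell from 12.7 and 12.5 FPKM to 8.93 and 9.65, a log2 fold change of -0.42 (SE 0.0703, adjusted p = 0.0186), a call lost without S17 or S19 (adjusted p 0.063 to 0.0735), with quantile normalization and with chromosome medians subtracted. The medium and small subunits did not pass. Ap3m1 (17.1 and 16.0 against 17.4 and 16.5 FPKM) and Ap3s1 (22.7 and 20.9 against 23.0 and 18.6) overlapped, Ap3m2 was at 1.75 and 1.71 against 1.65 and 1.58, and Ap3s2 was at 3.29 and 3.80 against 2.91 and 2.78 (log2 fold change -0.27, adjusted p = 0.0914). The processed pseudogenes Ap3m1-ps, Ap3s1-ps1 and Ap3s1-ps2 matched by symbol and were not called, and since they are copies of expressed genes, how fragments were split between them and their parents is uncertain. Of AP-4, which exports cargo from the Golgi apparatus, 0 of 4 genes were called, and the furthest from 0 was Ap4s1 at 4.85 and 5.45 against 6.64 and 5.72 FPKM (log2 fold change 0.24, adjusted p = 0.152).

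In AP-5, which retrieves proteins from late endosomes, Ap5z1 was at 1.89 and 2.03 FPKM in Control and at 0.947 and 0.907 in iRhom1 KO, 47.3% of the Control mean. Its log2 fold change of -0.78 (SE 0.0835, adjusted p = 0.00838) understates that ratio because of the pseudocount, and the gene passed the filter through its Control level only. Ap5m1 (0.937 and 1.05 against 0.972 and 1.64 FPKM) and Ap5s1 (3.32 and 2.42 against 2.25 and 2.73) overlapped. The members not tested were Chmp4c, Vps13d, Snx20, Snx29, Snx31, Snx32, Ap1s3, Ap3b2 and Ap5b1, each with a mean under 1 FPKM in both groups. Of those not described above, Snx29 lay between 0.222 and 0.295 FPKM over the 4 libraries, Snx31 between 0.0127 and 0.056, Snx32 between 0.118 and 0.253, Ap1s3 between 0.312 and 0.893, Ap3b2 between 0.566 and 0.689 and Ap5b1 between 0.406 and 0.601. Snx32 shares 13.2% of its exon bases with the abundant Cfl1 on the opposite strand.

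Ratios between related subunits within a library do not change when a library is multiplied by a factor. They are given here as a description without a test, with no such ratios of other gene pairs to set beside them. FPKM are corrected for length, so the levels of paralogs can be compared. Vps26a was 5.25 and 5.54 times as abundant as Vps26b in Control and 2.96 and 2.60 times in iRhom1 KO. For Vps33a and Vps33b the ratio went from 6.52 and 6.05 to 3.39 and 3.55, and for Ap1s1 and Ap1s2 from 5.15 and 6.24 to 3.15 and 3.37. In each of these pairs the more abundant paralog was the lower one in iRhom1 KO, and it stayed the more abundant. The order of Vps37a and Vps37b reversed, with ratios of 0.867 and 0.881 in Control and 1.32 and 1.25 in iRhom1 KO. Other ratios widened. Ap2a2 to Ap2a1 went from 2.04 and 2.0 to 3.0 and 2.90, Snx5 to Snx6 from 2.82 and 2.85 to 3.58 and 3.42, and Vps4a to Vps4b from 3.38 and 3.40 to 4.07 and 4.20. Snx9 to Snx18 moved little, from 5.99 and 6.11 to 6.53 and 6.48, both genes being lower. The ratios of Ap3s1 to Ap3s2 overlapped (6.89 and 5.51 against 7.88 and 6.69).

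**Figure D3:**
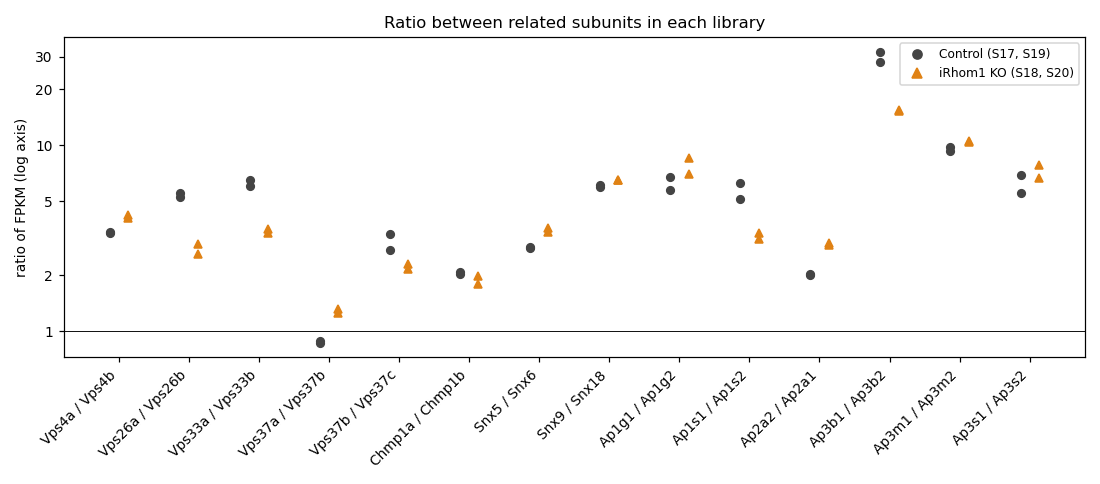
Ratio of the FPKM of related subunits (log axis) in each Control library (circles) and iRhom1 KO library (triangles), with a line at a ratio of 1. The ratios of Vps26a to Vps26b and of Vps33a to Vps33b drop from above 5 to below 4, the ratio of Vps37a to Vps37b crosses 1, and that of Ap2a2 to Ap2a1 goes from 2.0 and 2.04 to 2.90 and 3.0.

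The lower members were spread over the genome but were frequent on 4 chromosomes whose genes were lower in general. All tested genes had a median log2 fold change of -0.34 on chromosome 13, -0.32 on chromosome 15, -0.37 on chromosome 17 and -0.23 on chromosome 5, against -0.10 to -0.03 on the other autosomes and the X chromosome. On these 4 lay 19.9% of the genes tested and 18% of the members tested, 16 in number, of which 11 were lower (68.8%) and 0 higher with a median of -0.56, beside 41.3% of all 2043 genes tested there being lower with a median of -0.31. The 73 tested members elsewhere included 15 lower (20.5%) and 3 higher genes with a median of -0.16, beside 17.1% of all genes there being lower with a median of -0.05. All 3 tested members of chromosome 13 (Vps41, Ap3b1 and Snx18) and both of chromosome 17 (Vps52 and Snx9) were lower, as were 5 of 9 on chromosome 5. The part of this chromosome-wide shift in the lower levels of the members was not tested beyond the subtraction of chromosome medians. For the alternative with chromosome medians subtracted, the log2 level of each gene was taken relative to the median level of its chromosome in the same library, so the shift removed can differ from the median log2 fold change of the chromosome. In this setting 6 of the 11 lower members on these chromosomes were still called. They were Vps33a at -0.80, Ap1s1 and Ap5z1 at -0.59, Vps41 at -0.49, Vps29 at -0.42 and Ap3b1 at -0.41. Among them Ap5z1 had passed the filter through its Control level only. The other 5 lost the call, Vps52 at -0.20, Snx18 at -0.18, Vps37b at -0.14, Snx9 at -0.07 and Vps28 at -0.04. The 67 tested genes within 5 Mb of Vps41 had a median of 0.07, above that of its chromosome, whereas the 48 around Ap3b1 had a median of -0.40. Of the members that kept every call, Vps11, Vps26a and Vps50 lie on chromosomes 9, 10 and 6, whose medians were -0.04, -0.04 and -0.06.

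**Figure D4:**
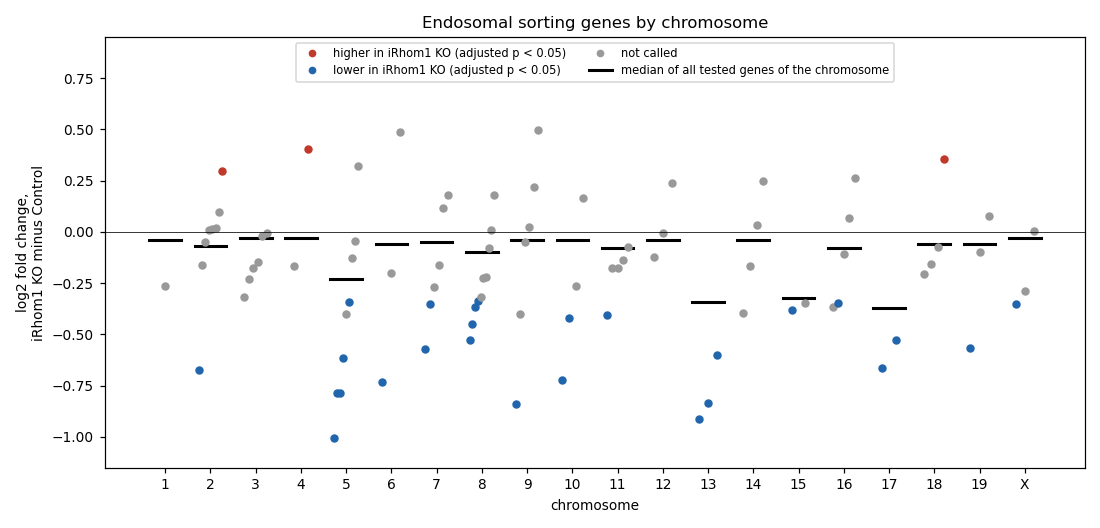
Log2 fold change (iRhom1 KO minus Control) of each tested member by chromosome, coloured by call, with the median of all tested genes of that chromosome as a black bar. The bars of chromosomes 5, 13, 15 and 17 lie between -0.37 and -0.23, below those of the other chromosomes shown, and the lower members on chromosomes 5 and 13 reach -1.0 and -0.91.

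The genes of proteins that work with these complexes were also lower more often than higher, as were the genes tested as a whole. Of 106 such genes listed from knowledge of the pathways, 95 had a row and 89 were tested, of which 25 were lower and 6 higher, with a median log2 fold change of -0.17. The called share was 34.8%, beside 32.6% over all genes. Of these partner genes 28.1% were lower and 6.74% higher, beside 21.9% and 10.7% of all genes. The partners of retromer and retriever were the sublist with the largest number of lower genes, 8 of 15 tested with 1 higher and a median of -0.51. In the WASH complex, which retromer recruits to build actin on endosomes, Washc5 fell from 73.6 and 70.5 FPKM to 28.7 and 26.9 (log2 fold change -1.36, SE 0.067, adjusted p = 0.00316). Washc2, the subunit that retromer binds, fell from 18.9 and 18.1 to 8.51 and 8.39 FPKM (-1.09, SE 0.0631, adjusted p = 0.004), and Washc1 from 5.93 and 6.26 to 3.68 and 3.64 (-0.67, SE 0.0693, adjusted p = 0.00807). Washc1 lies on chromosome 17 and lost its call with chromosome medians subtracted. Washc5 lies on chromosome 15 and kept its call in that setting, at -1.01. The other WASH subunits were not called. Washc3 overlapped at 5.43 and 5.26 against 6.3 and 5.28 FPKM (0.10), and Washc4 was at -0.20 (adjusted p = 0.136). Commd9, a subunit of the COMMD complex that acts with retriever, fell from 16.4 in each Control library to 8.42 and 9.27 FPKM (-0.86, SE 0.0745, adjusted p = 0.0061). Commd4 (-0.57) and Commd8 (-0.59) were also lower, while Commd2, Commd3, Commd6 and Commd10 were not called (adjusted p 0.0946 to 0.581). The call of Commd4 was lost without S17, S18 or S20, and that of Commd8 held in every alternative. Commd8 lies on chromosome 5 and was at -0.39 with chromosome medians subtracted. Ankrd27, which links retromer to a SNARE of late endosomes, was higher (log2 fold change 0.27, adjusted p = 0.0402), a call lost without each library in turn (adjusted p 0.0637 to 0.212) and with no filter.

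The last sublist holds receptors and other membrane proteins that travel these routes. Of 10 tested, 6 were lower (60.0%) and 1 higher (10.0%), beside 21.9% and 10.7% of all genes. Their median log2 fold change was -0.53. Lamp1, the main glycoprotein of the lysosomal membrane, fell from 502 and 481 FPKM to 175 and 176 (log2 fold change -1.48, SE 0.06, adjusted p = 0.0029). The transferrin receptor Tfrc fell from 78.7 and 70.9 FPKM to 31.4 and 33.0 (-1.20, SE 0.0786, adjusted p = 0.00478). Igf2r, a mannose 6-phosphate receptor that retromer returns to the Golgi apparatus, fell from 11.4 and 9.65 FPKM to 4.88 and 5.11 (-1.0, SE 0.102, adjusted p = 0.0079). The tetraspanin Cd63 fell from 47.9 and 48.6 to 33.6 and 32.2 (-0.55, SE 0.0594, adjusted p = 0.0088). These 4 genes kept their calls in every alternative. Igf2r lies on chromosome 17, and with chromosome medians subtracted its log2 fold change was -0.54. M6pr, a second mannose 6-phosphate receptor, was not called, at 22.5 and 21.9 against 20.3 and 20.8 FPKM (-0.11, adjusted p = 0.218). The higher gene was the glucose transporter Slc2a1, a cargo of retromer and Snx27, at 11 and 10.9 against 18.5 and 19.3 FPKM (0.76, SE 0.062, adjusted p = 0.00563), which also kept its call in every alternative.

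The other sublists had smaller shares of called genes, 16.7% to 26.7% beside 32.6% over all genes. Of 15 tested partners of ESCRT, 3 were higher and 1 lower, with a median log2 fold change of -0.18. The ESCRT-I subunit Ubap1 rose from 8.60 and 8.95 FPKM to 12.8 and 11.8 (log2 fold change 0.47, adjusted p = 0.017). Like Chmp5, Ubap1 lies on chromosome 4, and the 64 tested genes within 5 Mb of it had a median of 0.26. The ESCRT-0 subunit Stam, which binds ubiquitinated cargo first, rose from 9.15 and 8.66 FPKM to 13.1 and 11.6 (0.45, adjusted p = 0.0269). Mvb12a, a further subunit of ESCRT-I, was at 0.36 (adjusted p = 0.028), and Snf8, the partner of Vps36 in ESCRT-II, fell from 7.07 and 7.39 FPKM to 5.05 and 5.00 (-0.48, adjusted p = 0.0124). Ubap1 lost its call without S17 (adjusted p = 0.0617), Snf8 without S19 (0.0575), Stam without S17, S19 or S18 (0.0541 to 0.0837) and Mvb12a without each library (0.0605 to 0.133). Stam also lost its call with no filter. Among 10 enzymes of phosphoinositide metabolism 2 were lower and 0 higher, with a median of -0.14. Vac14, the scaffold of the kinase that makes the lipid of late endosomes, fell from 7.30 and 7.59 FPKM to 3.62 and 3.77 (-0.92, SE 0.069, adjusted p = 0.00542), and this call held in every alternative. Pik3c3, the kinase that makes the lipid of early endosomes, was at -0.35 (adjusted p = 0.0269), a call lost without each library (0.0525 to 0.12), with no filter and under each of the 3 other scalings.

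Of 12 partners of the tethers 2 were lower and 0 higher, with a median of -0.13. These were Tgfbrap1, the counterpart of Vps39 in CORVET (-0.37, adjusted p = 0.0343), and Vipas39, the partner of Vps33b (-0.32, adjusted p = 0.0282), and both calls were lost without each library in turn (0.0683 to 0.135 and 0.0582 to 0.158), with no filter and under each of the 3 other scalings. Clathrin and its helpers had 6 lower (22.2%) and 1 higher (3.7%) of 27 tested genes, beside 21.9% and 10.7% of all genes. Their median was -0.13. The light chain Cltb fell from 28.0 in each Control library to 15.6 and 16.1 FPKM (-0.80, SE 0.059, adjusted p = 0.00534) and kept its call in every alternative. Cltb lies on chromosome 13, and with chromosome medians subtracted its log2 fold change was -0.38. The heavy chain Cltc fell from 48.6 and 42.8 FPKM to 30.7 and 31.2 (-0.55, SE 0.0834, adjusted p = 0.0153), a call lost without S18 or S20 (0.0622 to 0.0663). Gga1, an adaptor at the Golgi apparatus, was at -0.52 (adjusted p = 0.0169) and Ap1ar, which binds AP-1, at -0.42 (adjusted p = 0.026), with calls lost without S17 or S18 (0.0513 to 0.06) and without S17, S19 or S20 (0.0614 to 0.0913). Gga1 lies on chromosome 15 and also lost its call with chromosome medians subtracted, at -0.17, and Ap1ar lost its own with no filter. Necap1, a partner of AP-2, was higher at 0.27 (adjusted p = 0.0342), a call lost without each library (0.0631 to 0.176) and with no filter.

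**Figure D5:**
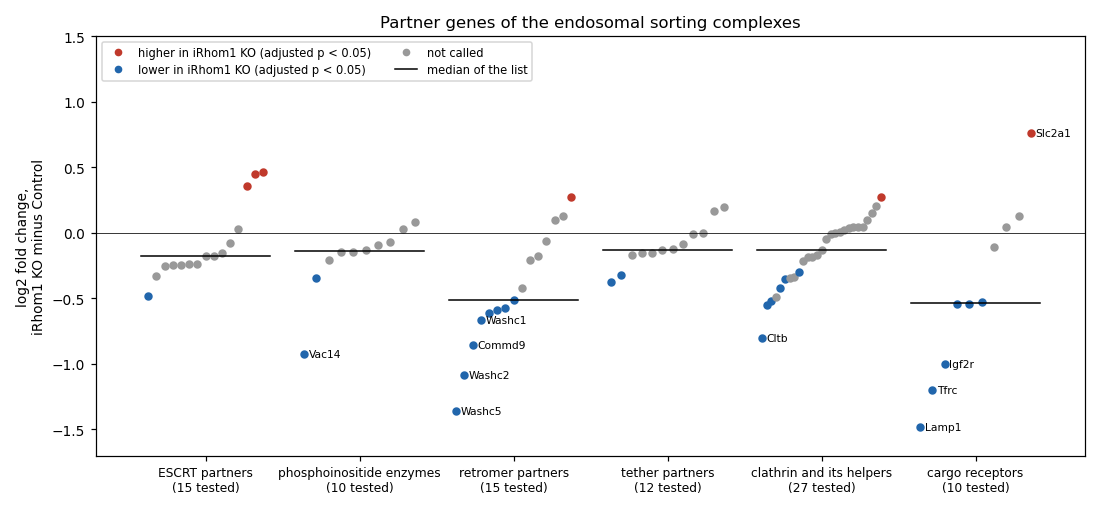
Log2 fold change (iRhom1 KO minus Control) of the 89 tested partner genes in 6 sublists, each point a gene coloured by call and sorted within its sublist, with the median of the sublist as a line. The medians of the retromer partners (-0.51) and of the sublist labelled cargo receptors (-0.53) lie below those of the other sublists. Washc5 at -1.36 and Lamp1 at -1.48 are the lowest points and Slc2a1 at 0.76 is the highest. The sublist labelled cargo receptors also holds other membrane proteins, such as Lamp1 and Slc2a1.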

How the data were processed

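Gene expression was measured by bulk RNA sequencing in 2 Control and 2 iRhom1 KO libraries of CT26 cells. The authors aligned reads to GRCm38 with HISAT2 and quantified them with StringTie (versions not given in the sources used here), and deposited FPKM per gene and library, with no further scaling stated. The deposited fold column and its log2 column hold the authors' comparison of the groups and were not used. Of 21724 rows, 19 without a gene name (at most 0.0418% of the FPKM) were left out, and 54 rows of 26 symbols were summed. Columns carry library tags, and their group was taken from the column name. No table of counts was used, so precision was judged from the spread between libraries.

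Genes were kept where the mean of either group reached 1 FPKM. All 4 libraries entered 1 fit of log2(FPKM + 0.5) in limma (version 3.58.1, R version 4.3.3), in which the variance followed a trend with the level, and p-values were adjusted after Benjamini and Hochberg over all genes tested, at a threshold of 0.05. On this scale the change of low genes is understated. The script was tested on simulated data. Positions came from GENCODE M21 and RefSeq on GRCm38.p6, promoters from RefSeq. Exons were taken to overlap from 100 shared bases.

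Alternatives were pseudocounts of 0.1 and 1, no filter or one at 5 FPKM, robust limma, and using for a repeated symbol its highest row. Others were scaling by a trimmed mean, quantile normalization, chromosome medians subtracted within each library, and leaving out each library. The trimmed mean was taken after cutting 30% of the log ratios and 5% of the levels at each end. Members and lists were chosen with earlier results of these data known. Named were all called members, of each complex the members with the smallest p or the highest level, every pair of paralogs, and of each partner sublist up to 4 genes in each direction with the smallest p. Markers of other cell types were fixed as lists of their own. Apobec2 falls outside these rules and was named after its values were seen, as were Fam216a, Hip1r, Ppib and Cfl1, named for their overlap with members. Washc3, Washc4, M6pr and the COMMD genes other than Commd9 were also named outside these rules, to show the rest of their kind. The rule matches 106 symbols of GENCODE M21, of which Ap1m2, Ap2b1, Chmp2a, Snx1, Vps13c, Vps25, Vps51 and Vps9d1 had no row and were not analysed here. A gene of the partner list is not reported here and was left out of its counts.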

Additional observations from a re-analysis of the deposited data

How the results depend on the processing

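Counts of members moved by more than 1.5 times in several settings. Higher members numbered 3, and 1 with no filter, 7 with trimmed mean scaling, 8 with quantile normalization, 6 with chromosome medians subtracted and 0 to 4 with 1 library left out. Lower members numbered 26, and 14 with chromosome medians subtracted and 15 to 21 with 1 library left out. Of the partner genes 6 were higher and 25 lower, and 1 to 3 and 15 to 19 with 1 library left out. Over all genes 1096 were higher and 2254 lower. The higher count was 727 with the filter at 5 FPKM, 1646 with trimmed mean scaling, 1645 with chromosome medians subtracted and 561 to 745 with 1 library left out, and the lower count was 1114 with chromosome medians subtracted and 1096 to 1713 with 1 library left out. The cause of these shifts was not tested. Pseudocounts of 0.1 and 1, robust limma, and the highest row of a shared symbol kept all 29 called members. The log2 fold change of Ap5s1, not called, ranged from -0.36 to 0.03 with 1 library left out, reversing only without S17. The depth in reads is not known, so how far it limits members of low FPKM could not be given. No paired analysis was possible because the columns carry library tags and not the replicate numbers of the labels.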
